A study of Mus musculus with 3 samples.

Results

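The guanylate-binding proteins of the mouse were followed in resting macrophages through 10 genes, Gbp2, Gbp2b, Gbp3, Gbp4, Gbp5, Gbp6, Gbp7, Gbp8, Gbp9 and Gbp10. They were taken by symbol from the 55536 genes of the deposited tables, and each symbol matched 1 gene. The study sequenced polyadenylated RNA of macrophages grown from bone marrow of C57BL/6J mice. Its 3 libraries, replicates 1, 2 and 3, form 1 group, labelled as cells given lipid A, the membrane anchor of lipopolysaccharide, at 100 ng/ml for 0 minutes. With 1 group, the comparisons possible are between members, between libraries and between the 2 programs with which the authors assigned reads. The labels call the libraries biological replicates, from separate biosamples that name the same donor record, with sex and age not collected. Separate animals or cultures are not stated, so p-values measure only the spread between these libraries, which may be technical in part.

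Guanylate-binding proteins are large GTPases of the dynamin superfamily, with a globular GTPase domain and a helical tail. They are among the genes most strongly induced by interferon gamma, and they assemble on the vacuoles of intracellular parasites and on the surface of bacteria in the cytosol. There they help to break the membrane and to expose lipopolysaccharide and DNA to inflammasomes. Some members carry a C-terminal signal for a lipid anchor, and loading onto vacuoles depends on the ATG8 conjugation system of autophagy and on the immunity-related GTPases.

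The libraries held 27946070, 29779410 and 53447437 expected counts in replicates 1, 2 and 3, and members took 0.0145%, 0.111% and 0.0307% of them. All 8 macrophage markers were at 1 TPM (a transcript level corrected for length and depth) or more in every library, with a summed level of 23155, 38565 and 20392 TPM in replicates 1, 2 and 3. Of these, 5 were highest in replicate 2, and the median log2 ratio there was 0.32. Neutrophil markers stood apart in replicate 2, with a summed level of 36.2 TPM there, against 172 TPM in replicate 1 and 337 TPM in replicate 3. Of the 8 neutrophil markers, Ly6g, a defining marker, was alone in having 0 counts in every library. S100a9, the highest, had 86.9, 20.1 and 183 TPM in replicates 1, 2 and 3. Ngp had 13.8, 1.95 and 57.5 TPM, and S100a8 and Ltf likewise exceeded 1 TPM in each library. Mpo, Elane and Camp were lower, at no more than 1.98 TPM. Marker lists of B cells, dendritic cells, and stromal and endothelial cells summed to between 0.93 and 4.43 TPM per library. The part of these markers in the results was not tested. Replicate 2 was also the library in which the members stood apart, and each member's level is therefore given in each library and, as a mean, with and without replicate 2.

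The members lie in 2 clusters (build mm10, GENCODE M21). Gbp5, Gbp7, Gbp3, Gbp2b and Gbp2 span 144 kb of the plus strand at chr3:142493978-142638008. Gbp8, Gbp9, Gbp4, Gbp10 and Gbp6 span 280 kb of the minus strand at chr5:105014150-105293698. The clusters differ in how far a read can tell neighbours apart. The coding sequence of Gbp10-201 matched that of Gbp6-201 at 98.4% of bases, with 30 differences in 1833 bases. The other pairs on chromosome 5 matched at 89.6% to 92.9%. On chromosome 3 the closest pairs were Gbp2 with Gbp2b at 82.5% and Gbp3 with Gbp7 at 78.3%. Members on different chromosomes matched at a median of 63.1%. The stretch where the near-identical pair differs most (coding bases 1567 to 1626, counted from the start codon) is shown because reads over it can separate them; capitals mark the 9 differing bases.
Gbp6-201: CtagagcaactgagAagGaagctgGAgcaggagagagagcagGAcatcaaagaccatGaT
Gbp10-201: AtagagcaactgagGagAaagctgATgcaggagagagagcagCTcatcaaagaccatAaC

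Counted over all annotated transcripts, 89.8% of the 31-base words of Gbp10 also occurred in another gene, and 80.8% of all its words occurred in Gbp6. For Gbp6 the share was 74.3%, and 67.8% of all its words occurred in Gm43302, an annotated coding gene that spans the Gbp10 and Gbp6 loci. Gbp8 shared 31.1% of its words, Gbp9 18.3%, Gbp4 14.9% and Gbp7 14.7%. The other chromosome 3 members shared the least, with 5.64% for Gbp3, 4.85% for Gbp2, 4.15% for Gbp2b and 3.1% for Gbp5. Values of Gbp10 and Gbp6 therefore rest on how each program divides shared reads.

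Of the 10 members, 8 reached 1 TPM in every library, against 19.0% of all genes. Gbp2, which coats vacuoles of Toxoplasma and helps to lyse cytosolic bacteria, had the highest level, with 17.4, 208 and 37.6 TPM in replicates 1, 2 and 3. Its mean was 87.6 ± 104.6 TPM (SD, n = 3) and 27.5 TPM without replicate 2. The SD exceeded the mean because replicate 2 lay far above the other libraries.

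Gbp3, which is also recruited to parasite vacuoles, had 8.57, 91.6 and 23.0 TPM in replicates 1, 2 and 3. Its mean was 41.0 ± 44.4 TPM (SD, n = 3), or 15.8 TPM without replicate 2. Gbp7, which supports assembly of the NADPH oxidase at such vacuoles in mice, had 7.64, 63.0 and 15.3 TPM. Its mean was 28.7 ± 29.99 TPM (SD, n = 3), or 11.5 TPM without replicate 2. Both genes showed the order of Gbp2, with replicate 2 highest and replicate 1 lowest.

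Gbp5, which promotes NLRP3 inflammasome assembly, had 4.87, 58.1 and 10.2 TPM in replicates 1, 2 and 3. Its mean was 24.4 ± 29.3 TPM (SD, n = 3), and 7.53 TPM without replicate 2. Gbp2b, the gene formerly called Gbp1, was near the limit of detection. It had 0.02, 0.55 and 0.21 TPM, from 1, 28 and 21 counts, with a mean of 0.26 ± 0.269 TPM (SD, n = 3) and 0.115 TPM without replicate 2. A count of 0 would allow up to 3 counts in a library, so the single count in replicate 1 is within that limit.

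On chromosome 5, Gbp6 and Gbp9, which are also recruited to parasite vacuoles, were the most abundant. Gbp6 had 10.6, 59.8 and 15.3 TPM in replicates 1, 2 and 3, with a mean of 28.6 ± 27.2 TPM (SD, n = 3) and 12.9 TPM without replicate 2. Gbp9 had 15.8, 46.8 and 19.5 TPM, with a mean of 27.3 ± 16.9 TPM (SD, n = 3) and 17.6 TPM without replicate 2. Its libraries spread least of all members in proportion to the mean, and its replicate 1 level was second to Gbp2 alone.

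Gbp8 had 2.26, 41.2 and 13.6 TPM in replicates 1, 2 and 3, with a mean of 19.0 ± 20.0 TPM (SD, n = 3) and 7.94 TPM without replicate 2. Gbp4, reported to dampen IRF7 signalling, had 1.33, 17.4 and 1.91 TPM, with a mean of 6.89 ± 9.14 TPM (SD, n = 3) and 1.62 TPM without replicate 2. Gbp4 was thus close to the 1 TPM line in replicates 1 and 3. Gbp10 had 0.05, 0.8 and 0.04 TPM, from 2.96, 16.6 and 5.72 expected counts. Its mean was 0.297 ± 0.436 TPM (SD, n = 3), 0.045 TPM without replicate 2 and 0.523 TPM by the deposited posterior means, which gave 1.23 TPM in replicate 2.

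**Figure D1:**
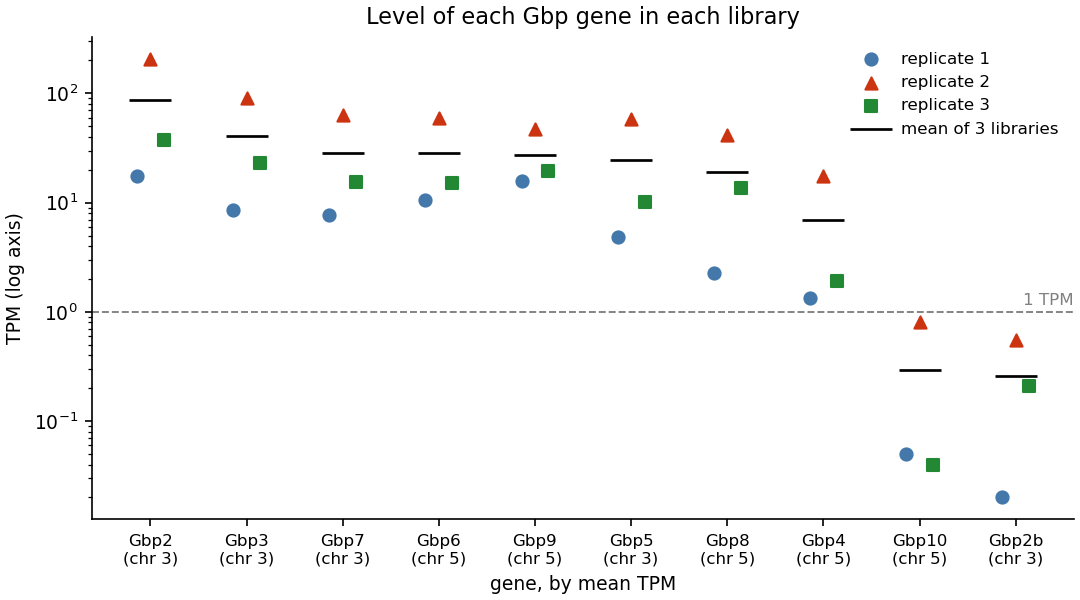
TPM (log axis) of each member in replicates 1, 2 and 3 as points, with the mean of the 3 libraries as a bar; genes run by mean TPM and carry their chromosome. Replicate 2 is the highest point for every gene, 8 genes lie above 1 TPM in every library, and Gbp10 and Gbp2b lie under it.

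The order of levels was beyond the spread at some steps. Gbp2 stood above Gbp3 by 0.97 ± 0.24 on a log2 TPM scale (SD over the 3 libraries), and Gbp3 above Gbp7 by 0.43 ± 0.23. Between Gbp7, Gbp6, Gbp9, Gbp5 and Gbp8, each neighbour in the order differed by less than the spread of that difference. Gbp8 was above Gbp4 by 1.58 ± 1.07 and Gbp4 above Gbp10 by 3.79 ± 0.52, in every library. Gbp10 and Gbp2b did not differ beyond their spread. Without replicate 2, Gbp9 was above Gbp5 by 1.301 ± 0.527 (SD, n = 2) and moved to second place by its mean, ahead of Gbp3 at 15.8 TPM. That place rests on replicate 1, where Gbp9 had 15.8 TPM and Gbp3 8.57 TPM. In replicate 3 Gbp3 was the higher, at 23.0 against 19.5 TPM.

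The make-up of the family also shifted between libraries. Gbp2 took 25.4%, 35.4% and 27.5% of the summed TPM of all members in replicates 1, 2 and 3. Gbp9 took 23.0%, 7.97% and 14.3%, so it weighed most where the family was lowest. Gbp8 took 3.3%, 7.02% and 9.98%, and Gbp7 stayed between 10.7% and 11.2%. The kallisto-format tables gave 22.1%, 8.41% and 14.2% for Gbp9.

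Summed over the family, the level was 68.5, 587 and 137 TPM in replicates 1, 2 and 3. The chromosome 3 members summed to 38.5, 421 and 86.3 TPM, which is 10.9 times as much in replicate 2 as in replicate 1. The chromosome 5 members summed to 29.98, 166 and 50.3 TPM, a ratio of 5.54. The chromosome 3 sum is mostly Gbp2 and Gbp3, so the gap between these ratios is a description of sums and was not tested. In a bulk library, more cells with these transcripts and more transcript per cell cannot be told apart.

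The library pattern was then set against that of all genes, from expected counts scaled by the trimmed mean of M values (TMM). Each library was set against the geometric mean of the remaining libraries as a log2 ratio, with 0.5 counts added, over 11886 genes that passed a filter on low counts. Gbp2b and Gbp10 did not pass it. The 8 members tested were all highest in replicate 2, where 32.3% of all tested genes were highest. They were also all lowest in replicate 1, as were 34.5% of tested genes. Their median log2 ratio was -2.35 in replicate 1, 2.63 in replicate 2 and -0.16 in replicate 3, while over all tested genes it was 0.00, 0.00 and 0.01. Gbp2b and Gbp10 were highest in replicate 2 as well.

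By member, the log2 ratio of replicate 2 to the others was 3.00 for Gbp4, 2.87 for Gbp5, 2.84 for Gbp2 and 2.77 for Gbp8. It was 2.49 for Gbp3, 2.33 for Gbp7, 1.91 for Gbp6 and 1.27 for Gbp9. Thus 6 of the 8 were over 4-fold above the geometric mean of the remaining libraries, a size that 0.917% of tested genes reached. Over each single library, 3 of the 8 (Gbp2, Gbp4 and Gbp5) exceeded 4-fold. Among the 11886 genes Gbp4 ranked 7th from the top, Gbp5 12th, Gbp2 14th and Gbp8 16th. Gbp3 ranked 32nd, Gbp7 45th, Gbp6 129th and Gbp9 521st. Replicates 1 and 3 differed unevenly. Replicate 3 was 7.13-fold above replicate 1 for Gbp8, more than the 2.55-fold of replicate 2 over replicate 3. For Gbp9 it was 1.54-fold above replicate 1.

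**Figure D2:**
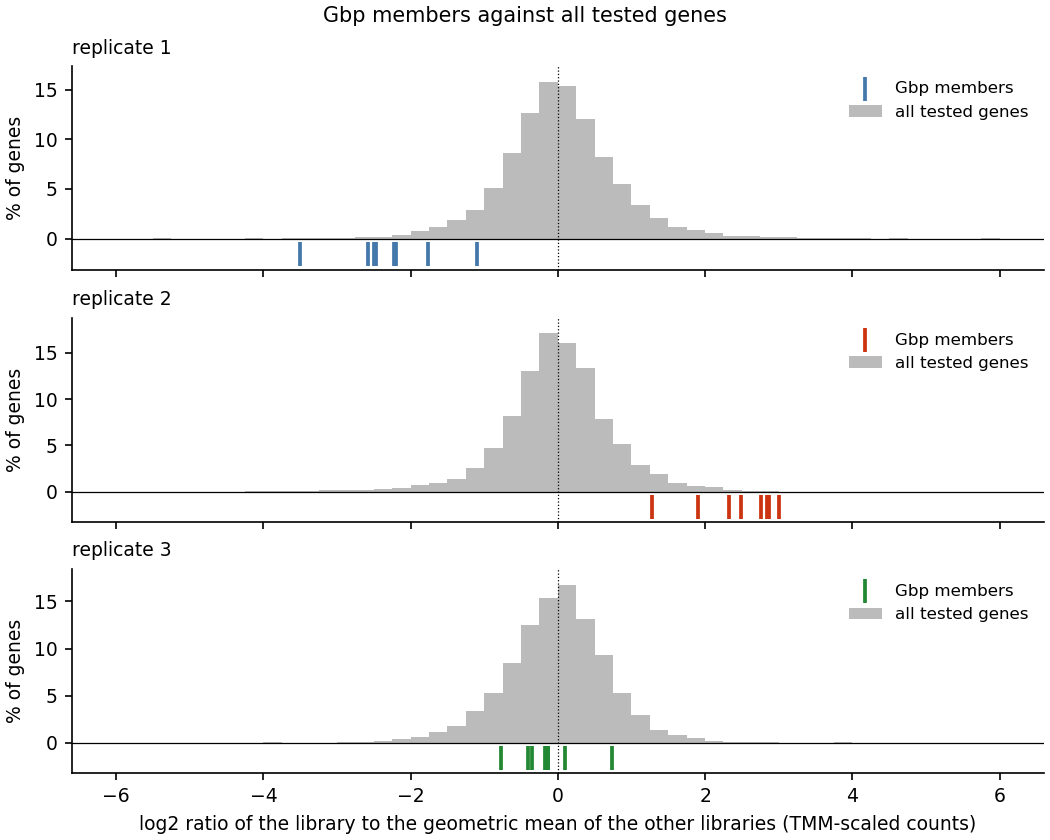
Histograms (bars, % of the 11886 tested genes) of the log2 ratio of each library to the geometric mean of those remaining, from TMM-scaled counts; coloured ticks under each histogram are the 8 members tested. The members' ticks lie left of centre in replicate 1 (median -2.35), right of it in replicate 2 (median 2.63) and around it in replicate 3 (median -0.16).

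Because the libraries are replicates of 1 group, the test that the design allows asks whether a gene varies more among them than genes of its level usually do. An edgeR quasi-likelihood fit with an upper-tail F test called 0 members and 0% of the 11886 genes at a Benjamini-Hochberg adjusted p of 0.05. The smallest adjusted p was 0.970, and 545 genes had an unadjusted p under 0.05. The 8 members' unadjusted p ran from 0.0028 for Gbp5 to 0.073 for Gbp9, with quasi-dispersions 21.3 and 4.45 times the value typical of their level. Even at 21.3 times that value, the adjusted p of Gbp5 in this edgeR test was 0.970. With 3 libraries the test can thus call only extreme spread, and 0 called does not show that members vary as other genes do. DESeq2's rule for dispersion outliers marked 9 genes and no member. With no filter on low counts the edgeR fit called 146 of 21603 genes, among them 6 members (Gbp2, Gbp3, Gbp4, Gbp5, Gbp7 and Gbp8). Without replicate 2 it called 7 genes and no member.

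To see which other genes behaved this way, lists of the interferon pathway and of proteins that work with the family were read in the same libraries. The ligands were all but absent. Ifng, which encodes interferon gamma, had 0 counts in every library, which allows up to 0.107, 0.101 and 0.0561 CPM (counts scaled to library size) in replicates 1, 2 and 3. Ifnb1 had 2, 2 and 3 counts, the most of the 5 ligands listed, and Ifna2, Ifna4 and Ifnl3 had 0 counts. The 10 markers of T and NK cells, which make interferon gamma, were all under 1 TPM in every library, and their summed level was 0.78, 0.12 and 0.91 TPM in replicates 1, 2 and 3. Cd3e had 3, 0 and 2 counts, Ncr1 had 0, 0 and 8 counts, and Gzma and Prf1 had 0 counts in every library. Cd3e, Gzma and Prf1 thus did not exceed the limit of 3 counts, while Cd3d and Klrb1c, like Ncr1, did in replicate 3, with 7 each. The part of such cells was not tested.

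The receptor and its signalling chain were present. Of 7 tested genes of interferon gamma signalling, 3 were highest in replicate 2, and the median log2 ratio there was 0.23. Irf1, a transcription factor needed for full induction of several members, had 30.9, 137 and 54.4 TPM in replicates 1, 2 and 3. Irf1 thus had the library order of the members, with a log2 ratio of 1.86 in replicate 2, within their range of 1.27 to 3.00. Socs1, the feedback inhibitor and lowest of the list, had 1.25, 2.91 and 0.16 TPM. Of 6 genes for the type I interferon receptor and its ISGF3 complex, 4 were highest in replicate 2, with a median of 0.62. Ifnar2, the receptor chain with the highest level, had 144, 163 and 225 TPM, and Tyk2, the kinase with the lowest, had 18.5, 40.2 and 15.8 TPM.

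Other interferon-inducible genes shared the high value in replicate 2. All 9 immunity-related GTPases, the partner family at vacuoles, were highest there, with a median log2 ratio of 1.69. Irgm1, a regulator of the other GTPases and the most abundant, had 102, 272 and 81.1 TPM in replicates 1, 2 and 3. Tgtp1, the least abundant, had 1.39, 5.28 and 0.45 TPM. All 13 type I interferon-stimulated genes were highest in replicate 2, with a median of 2.00. Ifit3 had 168, 642 and 187 TPM and Mx2 had 6.43, 22.8 and 5.29 TPM. Between replicates 1 and 3 the 3 sets parted: the median log2 ratio in replicate 3 was -0.16 for the family, -0.90 for the immunity-related GTPases and -1.03 for the type I genes. The difference between these sets was not tested.

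Inflammasome, autophagy, prenylation and vacuole-damage genes had medians between 0.02 and 0.32 in replicate 2. Of 9 inflammasome and pyroptosis genes, 2 were highest in replicate 2 and the median log2 ratio was 0.28. Casp1 had 97.0, 115 and 147 TPM in replicates 1, 2 and 3, Casp4, the sensor of cytosolic lipopolysaccharide, had 18.6, 43.8 and 37.97 TPM, and Nlrc4 had 4.66, 4.86 and 5.39 TPM. Gsdmd, which encodes the pore-forming protein of pyroptosis, was 1 of the 2 genes highest in replicate 2. Its log2 ratio there was 1.26, above the median, with 39.6, 113 and 31.6 TPM (named after its values were seen). Of 10 genes of ATG8 conjugation, 6 were highest in replicate 2 with a median of 0.32; Gabarap had 615, 871 and 866 TPM and Atg16l1 had 17.0, 17.9 and 8.04 TPM. None of 5 genes for prenylation and CaaX processing was highest in replicate 2 in TMM-scaled counts (median 0.06). In TPM the order can differ: Fnta had 38.7, 41.4 and 41.1 TPM, while Fntb had 5.67, 3.69 and 3.4 TPM.

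Among 6 ubiquitin ligases, galectins and adaptors of damaged vacuoles, 1 was highest in replicate 2 in TMM-scaled counts (median 0.02). Lgals3 had 4555, 3380 and 3648 TPM in replicates 1, 2 and 3, and Traf6 had 9.25, 10.5 and 8.7 TPM. The atlastins, distant relatives of the family that shape the endoplasmic reticulum, had a median of -0.18, with Atl3 at 38.4, 39.1 and 20.7 TPM and Atl1 at 0.79, 1.17 and 0.66 TPM.

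**Figure D3:**
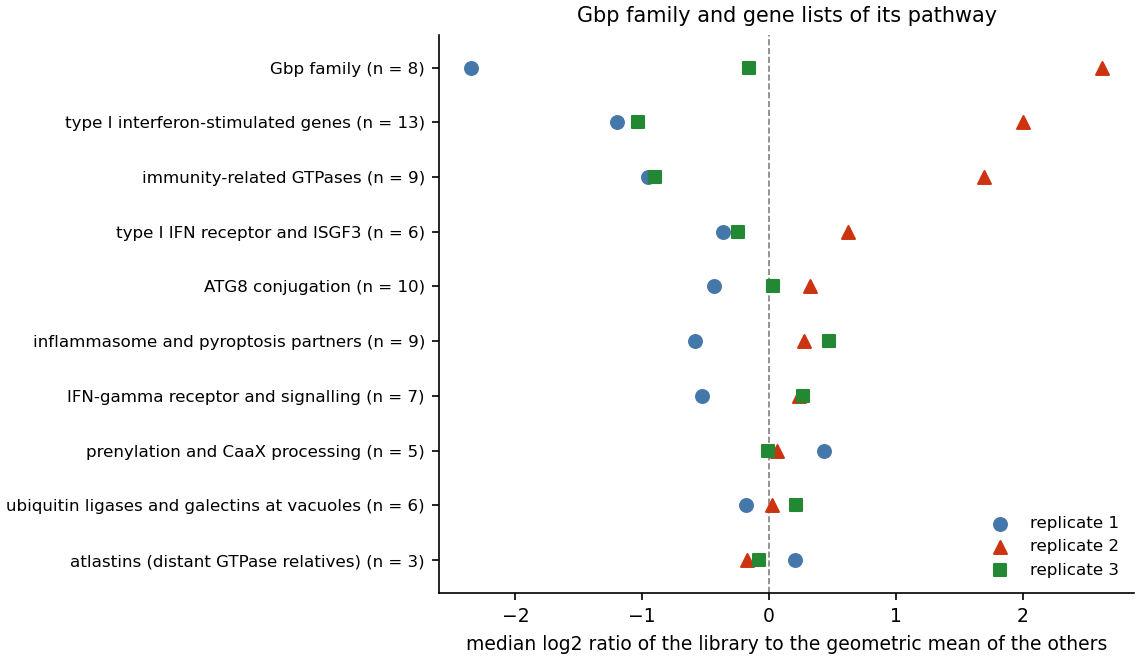
Median log2 ratio of each library to the geometric mean of the others (TMM-scaled counts) for the 8 tested members and for lists of genes of their pathway, with the number of tested genes in brackets. In replicate 2 the family is at 2.63, the type I genes at 2.00 and the immunity-related GTPases at 1.69, while no other list shown is above 0.62.

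The genes of most similar profile were found by the distance between log2(TPM + 1) profiles over the 3 libraries, each centred on its mean, among 7197 other genes with a mean of at least 10 TPM. The nearest was Fgl2, a secreted fibrinogen-like protein of activated macrophages, at a distance of 0.14 and with 17.7, 125 and 32.9 TPM in replicates 1, 2 and 3. H2-Q5, an MHC class I gene, followed with 2.92, 24.9 and 5.83 TPM, then Klk1b11, a kallikrein-related gene, with 6.19, 62.5 and 12.1 TPM. Cenpa, the histone variant of centromeres, had 11.0, 102 and 28.2 TPM, and the immunity-related GTPase Iigp1 had 9.39, 61.2 and 13.9 TPM. With 3 libraries a likeness of profile is a weak description, and 20 genes lay within 0.5. The member farthest from the profile was at 1.02, and 140 other genes lay within that distance. H2-Q5 and Klk1b11 reached a mean of 10 TPM only through replicate 2.

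Interferon-inducible promoters often carry an interferon-stimulated response element (ISRE), bound by IRF factors and ISGF3, or a gamma-activated site (GAS). Promoter windows from RefSeq (GRCm38.p6, 250 bases before to 50 after a start) matched 5 of the 10 members, all on chromosome 3; Gbp4, Gbp6, Gbp8, Gbp9 and Gbp10 were not matched. The ISRE core was searched as GAAA, any 2 bases and GAAA again, and the GAS as TTC, any 3 bases and GAA, on both strands. The core occurred in 5 of the 6 windows, at least 1 for each gene, against 3.44% of 32851 windows of this length. A link between the core and the order of libraries was not tested. The bases around each core are shown for comparison between the genes, on the plus strand, with the core, which lies on the other strand, in capitals.
Gbp5 (chr3:142496759-142496788): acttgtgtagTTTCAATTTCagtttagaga
Gbp7 (chr3:142530273-142530302): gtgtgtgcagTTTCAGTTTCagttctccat
Gbp3 (chr3:142559989-142560018): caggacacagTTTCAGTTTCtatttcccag
Gbp2b (chr3:142594700-142594729): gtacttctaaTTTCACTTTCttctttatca
Gbp2 (chr3:142620594-142620623): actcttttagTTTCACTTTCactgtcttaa

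Relative to the RefSeq start, the core lay at -165 to -156 in Gbp5, -53 to -44 in Gbp7, -45 to -36 in Gbp3, -137 to -128 in Gbp2b and -59 to -50 in Gbp2. Gbp3 held another core at -39 to -30, which overlaps the one shown, and its other window held none. Gbp3-202, the transcript with the largest share of Gbp3, starts at chr3:142560411. That is nearer the start of the window without a core (chr3:142560356) than that of the window with cores (chr3:142560044). Exon 1 of Gbp2-201, the main Gbp2 transcript, starts at chr3:142620602, so the Gbp2 core lies within it and not upstream. Gbp2b, at no more than 0.55 TPM, carries the same 10 letters as Gbp2, at 17.4 TPM or more. The GAS letters occurred in Gbp5 and Gbp7 among the 5 genes, with 2 matches each, so in 2 of the 6 windows, against 8.30% of all windows, and windows with both motifs made up 0.454%. The 110 bases upstream of Gbp7 that hold all 3 of its matches are shown with the matches in capitals, in the order GAS, GAS and ISRE core.
Gbp7 promoter (chr3:142530226-142530335): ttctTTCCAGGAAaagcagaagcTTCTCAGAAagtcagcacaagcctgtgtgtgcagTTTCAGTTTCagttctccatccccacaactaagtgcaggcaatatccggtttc
A match is a description of letters and shows neither binding nor use in these cells.

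Since paralogs share reads, the gene levels from RSEM, which divides reads aligned to the transcriptome, were set against those from kallisto, which matches reads to transcripts by short words. The ratio was taken as log2 of RSEM over kallisto TPM with 0.5 TPM added and centred on each library's median, which was 0.37, 0.35 and 0.04 in replicates 1, 2 and 3. A limma fit over the 12185 genes with a mean of at least 1 TPM called 0 of the 8 members tested, against 11.2% of all genes. With only 8 genes tested, 0 called is near that share and does not show that the programs agree. Over all genes, 509 were higher and 850 lower by RSEM. The members' log2 ratios ran from -0.10 for Gbp4 to 0.03 for Gbp2, and all 95% intervals lay between -0.31 and 0.21. The smallest adjusted p of a member was 0.364 (limma, Benjamini-Hochberg). The median size of the ratio was 0.03 for the members and 0.10 over all genes.

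In TPM before centring, Gbp2 had 17.4, 208 and 37.6 by RSEM in replicates 1, 2 and 3, and 14.5, 148 and 34.9 by kallisto. Gbp6 had 10.6, 59.8 and 15.3 TPM by RSEM, and 8.57, 43.8 and 14.9 TPM by kallisto. Gbp10, too low for the test, had 0.05, 0.8 and 0.04 TPM by RSEM, and 0.05, 0.69 and 0.05 TPM by kallisto. The near-identical pair thus stayed far apart by both programs. The order of the libraries in TMM-scaled counts was 2, 3, 1 for all 8 tested members, and by kallisto counts all 8 were highest in replicate 2 too.

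The sign of these small ratios depended on the centring. Without it, the members' log2 ratios over the 3 libraries ran from 0.15 for Gbp4 to 0.28 for Gbp2, all higher by RSEM, and no member was called. After centring, single library values lay between -0.25 and 0.14. Leaving out a library called 235 genes without replicate 1, 91 without replicate 2 and 2298 without replicate 3, and no member in any of these fits.

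**Figure D4:**
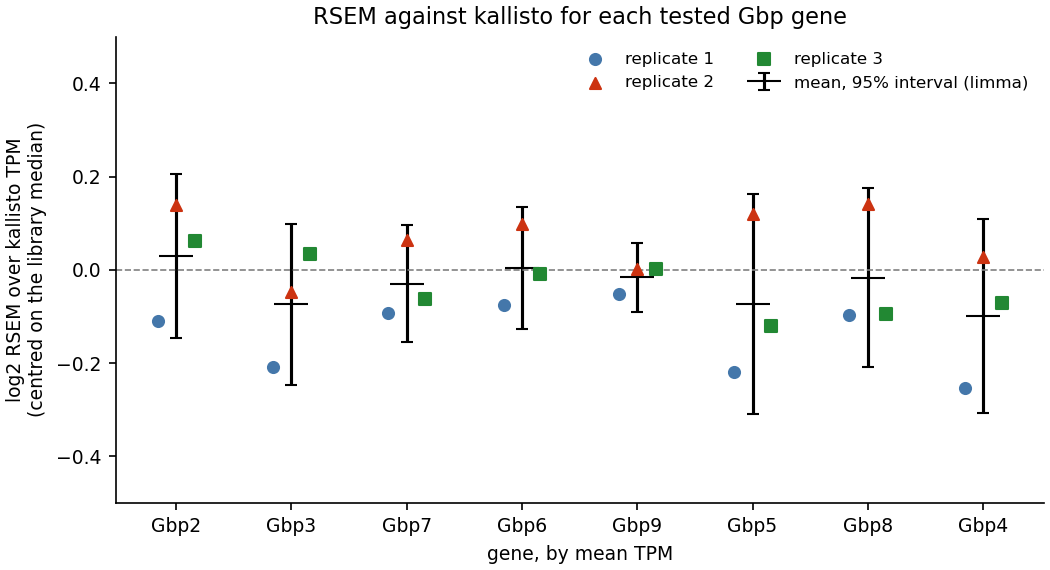
log2 of RSEM over kallisto TPM for the 8 tested members, centred on the library median: points are replicates 1, 2 and 3, bars the mean with its 95% interval from limma (n = 3). All intervals cross 0, and the means run from -0.10 for Gbp4 to 0.03 for Gbp2 after centring (0.15 to 0.28 without it).

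The deposited posterior standard deviations, which describe how firmly RSEM assigned reads, were widest for Gbp10 in proportion to its counts. For Gbp2, Gbp2b and Gbp5 they were 0 counts in every library. Gbp6 had 12.3 counts on a posterior mean of 3550 in replicate 2, which is 0.347%. Gbp7 had 19.9 counts in that library, which is 0.32%. Gbp10 had 6.63 counts on 19.3 in the same library, which is 34.4%, and 41.3% and 28.5% in replicates 1 and 3. The deposited interval for Gbp10 in replicate 2 ran from 0.111 to 2.59 TPM, against 53.9 to 58.0 TPM for Gbp6. These intervals lie around the posterior mean TPM, which was 55.9 for Gbp6 there, and need not hold the TPM given above. The 59.8 TPM of Gbp6 in replicate 2 lay above its interval. The interval of Gbp10 thus reached below and above the 1 TPM line, and that of Gbp6 did not come near it.

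Related genes took few reads. Gm43302, with the largest overlap with Gbp6, had 0, 0.03 and 0 TPM by RSEM in replicates 1, 2 and 3, and at most 1.14e-05 TPM by kallisto. Gm43802, a processed pseudogene that lies within Gbp7 at chr3:142547882-142548518 and holds 10.8% of its words, was the exception. It had 0, 10.3 and 0 TPM by RSEM, and 2.45, 22.3 and 0 TPM by kallisto. Gbp7 itself had 63.0 TPM by RSEM in replicate 2. In expected counts, which are not divided by length, Gm43802 had 76.5 there, against 6201 for Gbp7. The programs gave the pseudogene unlike levels in replicates 1 and 2, so its own level is uncertain. These counts are few beside those of Gbp7, whose posterior SD was 0.32% in replicate 2. Gbp11, annotated as a polymorphic pseudogene beside Gbp6, had 0.07, 1.43 and 0.15 TPM, again highest in replicate 2, and Gbp2-ps had 0 counts.

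At transcript level the programs divided some genes differently. Of the 36 annotated transcripts of the members, 11 differed between programs by over 10 percentage points of the gene's TPM in at least 1 library. Among the 9 members with more than 1 transcript, the one with the largest mean share was the same by both programs for 8. On chromosome 3 nearly all TPM fell to protein-coding transcripts: Gbp2-201 took 99.8 ± 0.3% of Gbp2 by RSEM (SD, n = 3), Gbp5-201 95.4 ± 1.9% and Gbp7-201 91.1 ± 3.9%. Gbp3 was shared by Gbp3-202, with 64.9 ± 12.1%, and Gbp3-203, with 30.99 ± 16.1%, both protein-coding.

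On chromosome 5, transcripts not annotated as protein-coding took a large share. Gbp4-202, annotated as a target of nonsense-mediated decay, held 59.4%, 60.8% and 89.5% of Gbp4 by RSEM in replicates 1, 2 and 3, and 65.3%, 59.8% and 82.8% by kallisto. It lacks the last 29 bases of exon 2 of Gbp4-201 (chr5:105136810-105136838, minus strand). As 29 is not a multiple of 3, the reading frame shifts, and the annotated coding sequence is 309 bases in Gbp4-202 against 1893 in Gbp4-201. Both junctions are shown with the 29 bases in capitals, since this stretch and its absence are what tell the transcripts apart.
Gbp4-202: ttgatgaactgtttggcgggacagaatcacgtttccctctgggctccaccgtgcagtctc
Gbp4-201: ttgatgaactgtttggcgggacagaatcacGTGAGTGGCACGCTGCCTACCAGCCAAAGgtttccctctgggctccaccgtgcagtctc
The retained stretch opens with GTGAGT, the letters typical of a 5′ splice site. Gbp4-201 had 21.7, 96.1 and 0 expected counts in replicates 1, 2 and 3, and Gbp4-202 had 62.2, 887 and 284. Protein-coding transcripts of Gbp4 together took 40.6%, 37.9% and 10.5% by RSEM, and 27.3%, 37.1% and 7.9% by kallisto. Of this, Gbp4-201 held 20.3%, 6.54% and 0% of Gbp4 by RSEM, and the remainder fell to shorter transcripts. Among these, Gbp4-203, 709 bases long, held 20.3%, 27.5% and 4.71%, from 2.22, 42.5 and 1.66 expected counts.

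In Gbp6 the leader by mean share differed between the programs. Gbp6-203, also annotated as a target of nonsense-mediated decay, held 42.6%, 34.4% and 80.4% by RSEM in replicates 1, 2 and 3, and 28.3%, 26.7% and 71.6% by kallisto. The protein-coding Gbp6-201 held 52.8%, 57.2% and 17.4% by RSEM, and 64.8%, 62.7% and 24.96% by kallisto. Thus Gbp6-201 led in replicates 1 and 2 and Gbp6-203 in replicate 3 by both programs, and by RSEM the lead of Gbp6-203 in the mean rests on replicate 3.

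In Gbp8 the processed transcript Gbp8-204 held 50.4%, 53.0% and 71.4% by RSEM in replicates 1, 2 and 3, and 37.4%, 43.6% and 58.4% by kallisto. The protein-coding Gbp8-201 held 49.6%, 42.8% and 26.9% by RSEM, and 39.7%, 47.8% and 15.7% by kallisto, so by kallisto it led in replicates 1 and 2. The protein-coding Gbp8-202 was at 0 counts by RSEM and took 16.3%, 0% and 23.3% by kallisto, the widest gap of any member transcript. In Gbp9 the retained-intron transcript Gbp9-203 held 8.44%, 24.2% and 8.17% by RSEM, and 9.41%, 23.6% and 10.9% by kallisto. Gbp10 was split in replicate 2 alone, where a retained-intron transcript held 78.8% by RSEM and 79.7% by kallisto, from 5.52 and 8.56 counts.

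**Figure D5:**
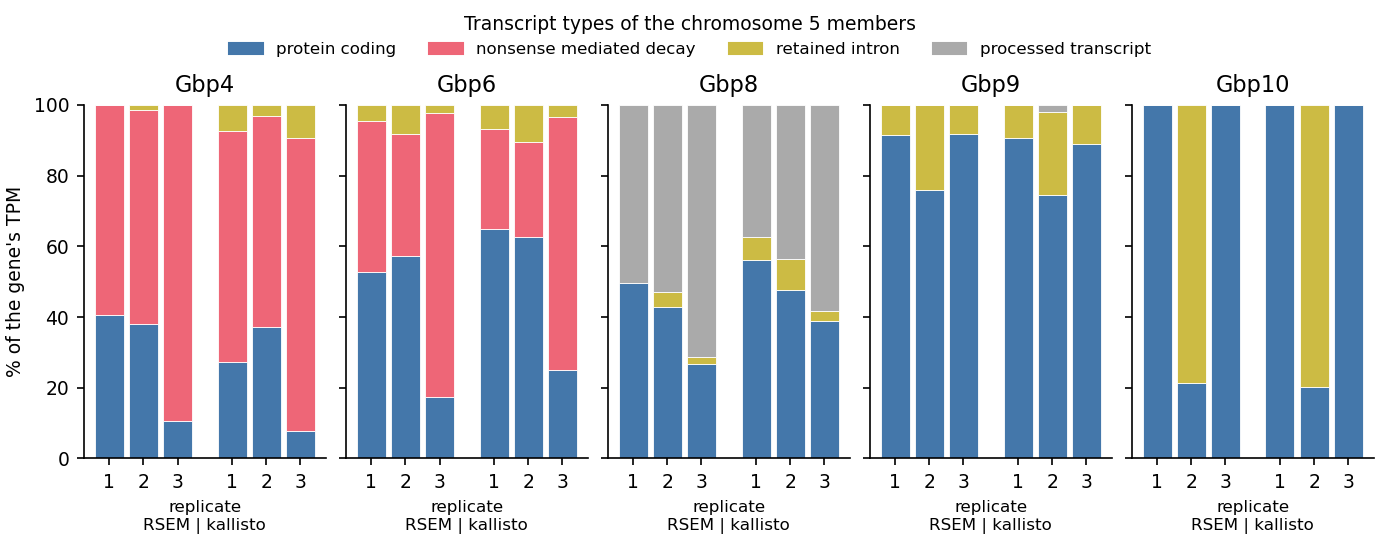
Share of each chromosome 5 member's TPM (stacked bars, %) by annotated transcript type in replicates 1, 2 and 3, by RSEM on the left of each panel and by kallisto on the right. Gbp4 and Gbp6 hold more of the nonsense-mediated decay type in replicate 3 (89.5% and 80.4% by RSEM). The retained-intron type is largest in replicate 2 by both programs for Gbp6, Gbp8, Gbp9 and Gbp10, and by RSEM alone for Gbp4.

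The chromosome 5 cluster also has transcripts that cross gene borders. Gbp8-201 and Gbp9-202 are annotated with the same exon 1 as the Gbp4 transcripts, with its inner edge at chr5:105139480 and 61 and 60 bases long. Gbp8-201 had 45.4, 764 and 317 expected counts in replicates 1, 2 and 3 by RSEM, and 51.4, 1076 and 216 estimated counts by kallisto. Gbp9-202 had 0 counts by RSEM in every library, and 117, 247 and 0 by kallisto. Reads that lie within the shared exon alone cannot be told apart by gene.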

How the data were processed

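Per the labels, the libraries are biological replicates 1 to 3 of 1 group. Per the file headers and deposited file lists, the authors made RSEM-format gene and transcript tables from transcriptome alignments and kallisto-format transcript tables from reads, on mm10 with GENCODE M21; the sources used here do not give the aligner, versions or strand handling. The deposited expected counts and kallisto estimated counts divide shared reads and need not be whole. The deposited TPM are scaled for length and depth; deposited posterior SDs and intervals were used as given.

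Of 81881 entries, 55536 matched M21 genes; 26345 entries that name no gene were left out; they held 0.0843% to 0.131% of all counts. Expected counts were rounded, filtered with filterByExpr and scaled by TMM. Tests used R 4.3.3, edgeR 4.0.16, limma 3.58.1 and DESeq2 1.42.0, and were tested on simulated data. The kallisto TPM was summed per gene. The members and lists were chosen with earlier results of these data known. Named genes are all members, each list's highest and lowest gene, Irf1, Irgm1, Casp4, Ifng, and the 5 genes nearest in profile, except an item not reported here; Gbp11 and Gbp2-ps are named as relatives, and the single cell-type markers, Gsdmd, Gm43302, Gm43802 and the order of levels without replicate 2 were added after values were seen. Alternatives tried were other scalings, filters, pseudocounts, kallisto values, DESeq2 and leaving out each library. Sequences are from GENCODE M21 transcripts and RefSeq promoters; protein sequences were not used here. The limit of 3 counts set on a count of 0 allows for counting error alone.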

Additional observations from a re-analysis of the deposited data

How the results depend on the processing

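The median of the members' mean levels was 25.8 TPM. It was 20.7 TPM by kallisto and 24.6 TPM by posterior means, 52.3 as TMM-scaled CPM, which are not divided by length, and 9.72 to 33.6 TPM with a library left out. All 8 tested members stayed highest in replicate 2 under DESeq2 size factors, TPM and kallisto counts, as did all 10 with no filter. The median log2 ratio of replicate 2 was 1.62 without replicate 1 and 3.43 without replicate 3, that of replicate 1 was between -3.43 and -1.38, and that of replicate 3 was between -1.62 and 1.38, being 1.38 without replicate 2. On the log2(TPM + 1) scale it was -0.61 in replicate 3, where the median of all tested genes was -0.23. The edgeR count of variable genes was 0, or 146 with 6 members when unfiltered, and 0 to 7 with a library left out; DESeq2 marked 9 genes. The limma count of 1359 genes that differ between programs was 2226 with the level filter at 0.1 TPM, and 91 to 2298 with a library left out. No member was called in any of the quantifier fits tried. No paired analysis was possible because the libraries form 1 group. Gbp2b and Gbp10, with at most 28 and 16.6 counts, are limited by depth.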
